A study of Mus musculus with 3 samples.

Results

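The Gimap genes encode the GTPases of immunity-associated proteins, a family of GTP-binding proteins made mainly in lymphocytes and anchored on the membranes of organelles such as lysosomes, mitochondria and the endoplasmic reticulum. Loss of Gimap5 in mice and rats leaves the blood short of T cells, and loss of Gimap1 removes mature T and B cells, so the family is best known for keeping resting lymphocytes alive. Some members bind proteins of the Bcl-2 family, and others have been tied to autophagy or to the pace of T-cell death. The 8 members described here, Gimap1, Gimap3, Gimap4, Gimap5, Gimap6, Gimap7, Gimap8 and Gimap9, were taken by symbol from the 32285 genes of the deposited tables.

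Peripheral blood mononuclear cells (PBMCs), the lymphocytes and monocytes of blood, were profiled by droplet-based single-cell RNA sequencing of transcript 3′ ends, with 1 library per group. Young mice were 8 weeks old and aged mice 16 months old, both with no treatment in the labels, and aged-GA mice were 16 months old and had been given glycyrrhizic acid (GA), a saponin of licorice root, for 1 month. The methods name tail vein injection for GA and the same injection of saline (PBS) for a control group, without saying whether the young mice received it. All mice were female C57BL/6; the young ones were purchased and the aged ones came from the laboratory's own stock, so age and source cannot be told apart. The study names several mice behind each group, but no cell is tied to a mouse, so each library is 1 sample. A difference between young and aged or between aged and aged-GA mice therefore has no replicate check and was not tested, whereas differences between cell classes were tested with the 3 libraries as replicates.

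The young, aged and aged-GA libraries held 58894294, 82260961 and 98155671 UMIs (unique molecular identifiers, each a captured RNA molecule) in 10842, 16038 and 17332 barcodes, of which 8851, 10238 and 12648 passed the filters on gene number and mitochondrial share. Of these, 502, 1193 and 1875 had over 10% haemoglobin UMIs and were put in no class. Between 50 and 62 barcodes were shared by each pair of libraries, and at most 10 of them lay in the classes used here. Cells were placed by marker genes into 6 classes, naive and memory CD4 T, naive and memory CD8 T, B and NK cells, which took 4287 young, 5308 aged and 7472 aged-GA cells. A lineage needed at least 3 UMIs of its markers and 75% of all lineage UMIs, and T cells were called naive with at most 20% and memory with at least 50% of their naive and memory UMIs from the memory list. CD8 T cells needed a Cd8a or Cd8b1 UMI and no Cd4 UMI, and CD4 T cells the reverse. Of 5060 young, 1930 aged and 3217 aged-GA T cells, 2147, 612 and 888 had no such call and entered no class. A further 245, 83 and 112 CD4 and 908, 184 and 383 CD8 T cells were neither naive nor memory by these limits. The T classes thus hold a part of the T cells that differs between libraries. The smallest class was naive CD8 T cells of aged mice with 56 cells, and the largest was B cells of aged-GA mice with 5407.

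The class labels were checked on genes the gate had not used. The summed level of 7 other memory genes was 2376, 4695 and 3721 CPM in memory CD4 T cells of young, aged and aged-GA mice and 159, 360 and 304 CPM in naive CD4 T cells, where CPM gives a gene's UMIs per fixed number of UMIs summed over the same cells. In CD8 T cells the same genes summed to 855, 2366 and 1999 CPM in the memory class and 138, 559 and 264 CPM in the naive class. Memory CD8 T cells of young mice went against their label in part, since Dapl1, a gene of naive T cells, stood at 381 CPM there and at 364 CPM in naive CD8 T cells of the same library. Results that rest on memory cells are therefore also given for cells with at least 90% memory UMIs, a limit added after seeing the data. It kept 97, 366 and 745 memory CD8 T cells and 28, 149 and 240 memory CD4 T cells. Dapl1 then stood at 52.0, 49.8 and 42.8 CPM in the CD8 class but at 40.2, 0 and 5.80 CPM in the CD4 class. Igfbp4, another naive gene, was at 40.1, 4.105 and 3.88 CPM in the CD8 and 73.7, 3.098 and 1.66 CPM in the CD4 class. S1pr1, a further naive gene, was lowest in young mice in both. The limit thus left some naive-type RNA uneven between libraries, and its part in the ratios was not tested.

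RNA of other blood cells was present in the lymphocyte sums and differed between libraries. The summed level of 4 myeloid markers, Lyz2, S100a8, S100a9 and Cst3, ran over the 6 classes from 70.8 to 233 CPM in young, from 360 to 1007 CPM in aged and from 215 to 536 CPM in aged-GA mice. Haemoglobin Hba-a1 ran from 114 to 172, from 684 to 1193 and from 591 to 981 CPM. The summed B-cell markers stood at 195, 332 and 2046 CPM in naive CD8 T cells of young, aged and aged-GA mice and between 145 and 759 CPM in the other T and NK classes. In B cells the T-cell gate genes Cd3d, Cd3e, Cd3g and Trac summed to 46.6, 42.6 and 82.5 CPM in young, aged and aged-GA mice. The 3 platelet markers Pf4, Ppbp and Gp9 were at 0 in all classes of young mice and summed to at most 10.2 and 17.0 CPM in those of aged and aged-GA mice. Myeloid cells, which should lack the family, held 119, 43.1 and 93.6 CPM of the 8 genes together, far under the 834 CPM of the lowest lymphocyte class.

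The 8 genes lie within 123618 bases on mouse chromosome 6 (chr6:48647234-48770851, GRCm38), in the order Gimap8, Gimap9, Gimap4, Gimap6, Gimap7, Gimap1, Gimap5 and Gimap3, with Gimap6 and Gimap3 on the minus strand and the other members on the plus strand. Gimap3 and Gimap5, close copies of each other, had 190 stretches of 50 bases in common, 7.52% of those of Gimap3 and 4.53% of those of Gimap5. A read lying wholly within such a stretch cannot be placed on 1 of the pair. Read length and the place of these stretches along the transcripts were not examined. No other pair of members shared such a stretch. Gimap1 is less certain for another reason, since 36.0% of its exonic bases lie under Gimap1os, an RNA gene on the opposite strand, and whether the counting used strand is not stated. None of the last 500 exonic bases of Gimap1, where 3′ counting mostly falls, lies under it.

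The 250 bases before the start of Gimap6, Gimap7, Gimap3 and Gimap5 are shown because these members carry the differences described here: Gimap6 and Gimap7 moved in opposite directions between naive and memory CD4 T cells, Gimap3 had a higher level in aged than in young mice in all 6 classes, and Gimap5 had a distribution unlike that of its copy Gimap3. Sequences are from RefSeq (GRCm38.p6), 5′ to 3′ on the strand of the gene, and capitals mark the matches to the motifs named in the next paragraph. The windows are chr6:48708245-48708494 on the minus strand for Gimap6, chr6:48718371-48718620 on the plus strand for Gimap7, chr6:48770852-48771101 on the minus strand for Gimap3 and chr6:48745947-48746196 on the plus strand for Gimap5.
Gimap6: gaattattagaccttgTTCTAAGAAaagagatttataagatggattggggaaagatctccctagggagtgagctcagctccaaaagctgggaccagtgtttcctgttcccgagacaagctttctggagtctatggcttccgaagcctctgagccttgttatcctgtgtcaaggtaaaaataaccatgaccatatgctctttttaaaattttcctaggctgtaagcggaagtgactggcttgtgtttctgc
Gimap7: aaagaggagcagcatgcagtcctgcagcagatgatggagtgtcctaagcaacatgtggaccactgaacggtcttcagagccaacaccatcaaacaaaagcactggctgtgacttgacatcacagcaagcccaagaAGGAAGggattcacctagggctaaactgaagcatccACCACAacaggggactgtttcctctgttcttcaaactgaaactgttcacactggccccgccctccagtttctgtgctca
Gimap3: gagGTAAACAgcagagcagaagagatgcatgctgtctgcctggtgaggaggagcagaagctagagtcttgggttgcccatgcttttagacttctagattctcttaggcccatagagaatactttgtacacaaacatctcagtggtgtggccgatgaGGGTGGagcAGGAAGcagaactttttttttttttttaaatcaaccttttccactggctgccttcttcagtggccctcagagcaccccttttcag
Gimap5: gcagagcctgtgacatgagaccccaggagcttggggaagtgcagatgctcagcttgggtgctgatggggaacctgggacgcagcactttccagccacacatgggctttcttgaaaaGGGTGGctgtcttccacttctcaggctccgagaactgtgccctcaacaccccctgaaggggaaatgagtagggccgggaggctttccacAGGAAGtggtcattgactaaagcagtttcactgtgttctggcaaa

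Motifs of 6 factor families of lymphocytes were searched on both strands in the same windows of all members and of 32851 entries over the genome, the other strand being the reverse complement. The 8 members have 9 windows, since Gimap8 has 2 entries. All Gimap8 matches lie in the second entry and none in the first. Members with a match in any window are counted, whereas the genome share is per window. The ETS letters AGGAAG were found for 7 members, all but Gimap6, against 29.5% of all windows. The KLF letters CCACCC were found for 5 members, Gimap8, Gimap9, Gimap4, Gimap5 and Gimap3, against 28.1% of all windows, and the RUNX letters TGTGGT for 3, Gimap4, Gimap7 and Gimap1, against 14.0%. The STAT letters TTCNNNGAA were found for Gimap8 and Gimap6 (7.02% of all windows), and the FOXO letters TGTTTAC for Gimap3 alone (3.17%). The TCF/LEF letters CTTTGA were found for no member (13.8%). In Gimap8 the ETS and STAT matches overlap. Gimap5 and Gimap3, whose distributions over classes differed, both held an ETS and a KLF match. Each family was searched only by the letters given, so other forms of a site, in Gimap6 as well, were not looked for. A match describes the letters and shows no bound factor.

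Added up to 1 sum, the family was expressed in every lymphocyte class at a level well above that of myeloid cells. It stood at 1653, 1949 and 2031 CPM in memory CD4 T cells of young, aged and aged-GA mice, at 1739, 1888 and 1869 CPM in NK cells and at 1566, 1878 and 1977 CPM in naive CD4 T cells. These top classes overlapped in range, although memory CD4 T cells lay above naive CD4 T cells in every library. Differences of the sum between classes were not tested. CD8 T cells were lower in mean, with 1229, 1748 and 1743 CPM in the memory class and 1278, 1368 and 1551 CPM in the naive class, and both ranges overlapped. B cells were lowest, at 834, 1104 and 1116 CPM. Among neighbours in this order as first gated, only naive CD8 T cells (mean 1399 CPM ± 139 SD, n = 3) and B cells (1018 CPM ± 160 SD, n = 3) did not overlap in range. Since 3′ counting gives 1 UMI per captured molecule, levels of different members were compared without scaling by length.

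**Figure D1:**
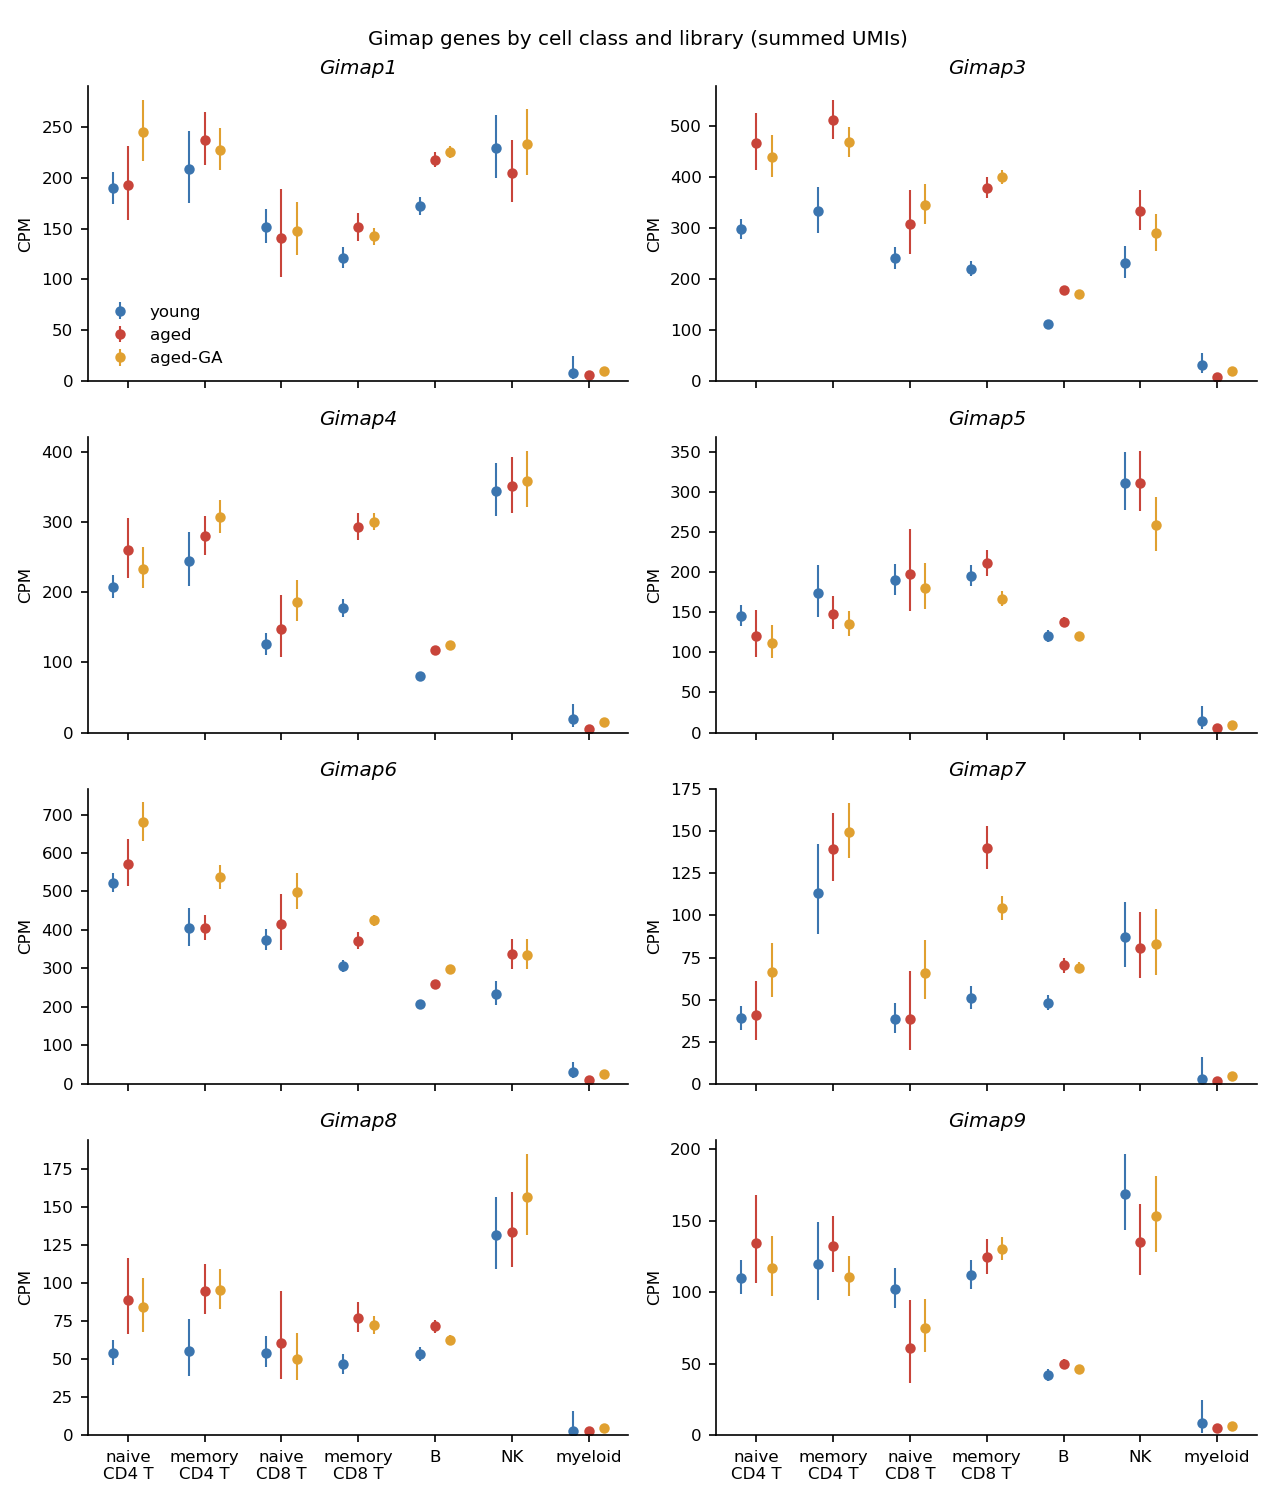
Level of each Gimap gene in CPM (vertical axes, linear from 0) in 6 lymphocyte classes and in myeloid cells, with 1 point per library (blue young, red aged, orange aged-GA) and 95% exact Poisson intervals that cover counting error only. On this scale Gimap6 is highest in naive CD4 T cells. Gimap4, Gimap5, Gimap8 and Gimap9 are highest in NK cells, where most genes are also higher than in memory CD8 T cells. All members are near 0 in myeloid cells.

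On the CPM scale the members divided into those highest in T cells and those highest in NK cells. Most genes also lay higher in NK than in memory CD8 T cells on that scale (median log2 fold change 0.35). Relative to most genes, Gimap4 (0.13) and Gimap9 (-0.05) did not pass the edgeR test between these 2 classes described below, whereas Gimap8 (0.76) and Gimap5 (0.26) did. Gimap6, an autophagy-linked member and the most abundant one in naive T cells, peaked in naive CD4 T cells at 523, 573 and 680 CPM. It stood at 206, 260 and 298 CPM in B cells, its lowest class in mean. Its neighbours in the order of the 6 classes overlapped at every step, although naive CD4 T cells exceeded memory CD4 T cells in 3 of 3 libraries.

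Gimap3 was highest in memory CD4 T cells (332, 512 and 467 CPM) and in naive CD4 T cells (298, 467 and 439 CPM). It was lowest in B cells (111, 179 and 170 CPM), which lay under NK cells (232, 334 and 289 CPM) without overlap. The young library was the lowest of the 3 in each of these classes.

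Gimap7, a member whose GTPase acts in dimers, was highest in memory CD4 T cells at 113, 140 and 150 CPM. Memory CD8 T cells held 50.8, 140 and 104 CPM, with the young library apart. Naive CD4 T cells held 38.8, 40.9 and 66.3 CPM and naive CD8 T cells 38.4, 38.3 and 66.0 CPM. Memory CD4 T cells lay above both naive classes in every library, with no overlap.

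Gimap4, which speeds the death of T cells under stress, was highest in NK cells at 345, 352 and 359 CPM, a spread of 7.39 CPM (SD) around 352. The next class, memory CD4 T cells at 245, 280 and 307 CPM, did not overlap with it. B cells held 80.7, 118 and 125 CPM of Gimap4, just under the range of naive CD8 T cells (126, 147 and 187 CPM) and without overlap with it. Naive CD4 T cells, at 207, 261 and 234 CPM, lay above naive CD8 T cells without overlap as well.

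Gimap5, the lysosomal member whose loss causes lymphopenia, was also highest in NK cells, at 312, 312 and 259 CPM. Memory CD8 T cells (195, 211 and 167 CPM) and naive CD8 T cells (190, 198 and 181 CPM) came next and were not distinguishable from each other. Memory CD4 T cells (174, 148 and 136 CPM), naive CD4 T cells (146, 121 and 112 CPM) and B cells (120, 138 and 120 CPM) were lowest. Gimap5 was the only member with both CD8 T classes above both CD4 T classes in mean.

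Gimap8, the largest member with repeated GTPase domains, was at 131, 133 and 156 CPM in NK cells, without overlap with any other class. The other 5 classes ran from 46.5 CPM in young memory CD8 T cells to 95.3 CPM in aged-GA memory CD4 T cells and overlapped in range at every step of their order. Gimap9 was at 169, 135 and 153 CPM in NK cells and at 42.0, 49.8 and 46.4 CPM in B cells. Both ends of the Gimap9 order were without overlap with their neighbours.

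Gimap1, which mature T and B cells need to persist, was spread most evenly. It stood at 172, 218 and 225 CPM in B cells, a range that overlapped with those of memory CD4 T cells (208, 237 and 228 CPM), NK cells (229, 205 and 234 CPM) and naive CD4 T cells (190, 193 and 245 CPM), with young B cells under all 3. Both CD8 T classes were lower without overlap with B cells, at 152, 141 and 148 CPM in naive and 121, 151 and 142 CPM in memory cells. Gimap1os, the RNA gene on its other strand, was at 10.8, 13.5 and 12.1 CPM in B cells and at 46.7, 44.4 and 44.2 CPM in NK cells, so the antisense gene did not share the even spread.

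The make-up of the family followed from these orders. Gimap6 gave 32.8% ± 2.03 (SD, n = 3) of the family's UMIs in naive CD4 T cells and 16.4% ± 2.56 in NK cells. Gimap1 gave 20.6%, 19.7% and 20.2% of them in B cells of young, aged and aged-GA mice and between 8.17% and 13.2% in the other classes. Gimap7 gave 2.67% ± 0.61 (SD, n = 3) in naive CD4 and 7.13% ± 0.26 in memory CD4 T cells.

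**Figure D2:**
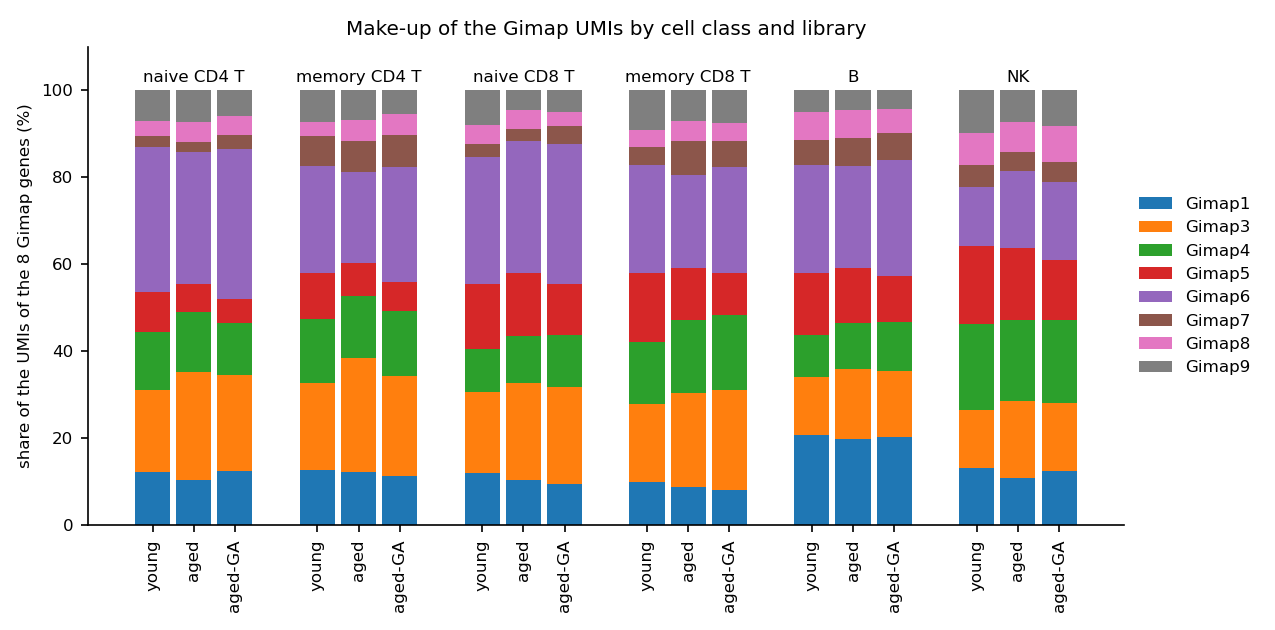
Share of the UMIs of the 8 Gimap genes that each gene gave (vertical axis, %, bars stacked to 100), by cell class and library. The Gimap1 share is near 20% in all 3 B-cell bars, the Gimap6 share is largest in naive CD4 T cells (mean 32.8%).

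Single cells were compared after thinning each to 1000 UMIs, since detection depends on depth. Of these thinned cells, 83.2%, 83.1% and 84.8% of NK cells of young, aged and aged-GA mice held a UMI of at least 1 member. Naive CD4 T cells held one in 73.9%, 81.5% and 84.7% of cells and B cells in 54.1% (95% interval 52.0 to 56.2, exact binomial, counting error only), 64.5% and 65.0%. The background share in myeloid cells was 7.04%, 4.69% and 7.27%, with median depths of 4199.5, 4358 and 3340.0 UMIs against 3405.5, 3064.5 and 3781 UMIs in B cells. Without thinning, between 90.9% and 100% of cells held a UMI of a member in the 6 classes and between 14.1% and 21.4% in myeloid cells. UMIs of 3 or more different members, after thinning, were found in 9.09%, 19.8% and 18.9% of memory CD8 T cells and in 3.16%, 6.67% and 6.39% of B cells.

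Differences between classes were tested with edgeR's quasi-likelihood test on the 18 sums of 6 classes and 3 libraries, with library as a term and p-values adjusted by Benjamini-Hochberg over all 9547 genes tested. Samples were scaled by TMM, a factor that centres the bulk of genes. With total UMIs in place of TMM, the median over all genes moved by 0.26 on the log2 scale in the comparison of memory and naive CD4 T cells and by 0.36 in that of NK and memory CD8 T cells, so the log2 fold changes below are relative to most genes, and directions that turn are named. The 3 libraries differ in age and treatment. The library term takes up what this shifts in all classes alike, and only the part that differs between classes enters the error. All 8 members passed the filter on low counts.

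The first comparison asked how naive and memory CD4 T cells differ. Gimap7 rose and Gimap6 fell in memory cells, while the other 6 members did not pass the test. The log2 fold change of Gimap7 was 1.11 ± 0.20 (SE; edgeR, adjusted p = 2.1e-04), higher in 3 of 3 libraries by 1.52, 1.75 and 1.16 in young, aged and aged-GA mice on the log2 scale of CPM. That of Gimap6 was -0.67 ± 0.09 (adjusted p = 1.4e-05), lower in 3 of 3 libraries. Thus 1 of 8 members was higher, against 10.7% of all genes, and 1 was lower, against 8.56%. With total UMIs the split over all genes was 21.7% higher and 4.1% lower, and Gimap7 (1.37) and Gimap6 (-0.41) kept their calls, but the signs of Gimap1, Gimap3, Gimap4, Gimap5, Gimap8 and Gimap9, none of them called, turned from below to above 0. At 90% memory UMIs Gimap7 was at 1.34 and Gimap6 at -0.79, both called, where 11.4% of all genes were higher and 9.49% lower.

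The same comparison in CD8 T cells gave 3 members that rose in memory cells and none that fell. Gimap7 rose by a log2 fold change of 0.82 ± 0.20 (edgeR, adjusted p = 0.011), Gimap4 by 0.65 ± 0.12 (adjusted p = 6.2e-04) and Gimap9 by 0.42 ± 0.13 (adjusted p = 0.043), each higher in 3 of 3 libraries. Among all genes 5.83% were higher and 3.87% lower. The step of Gimap7 was 0.40, 1.84 and 0.65 on the log2 scale of CPM in young, aged and aged-GA mice, so the aged library had the widest one. Without the aged library the adjusted p was 0.12 for Gimap7 and 0.18 for Gimap9, and without the aged-GA library it was 0.075 and 0.50, whereas Gimap4 stayed called without any 1 library. Under a stricter marker gate Gimap4 lost its call (0.53, adjusted p = 0.25). At 90% memory UMIs Gimap7 was at 1.26, Gimap4 at 0.92 and Gimap9 at 0.47, all called, and Gimap6 was also lower (-0.33, adjusted p = 0.012), where in the main comparison it had -0.29 (adjusted p = 0.060). Among all genes 10.1% were higher and 10.3% lower at that limit, so the share called lower rose for all genes as well. With TMM and the wider limit, Gimap7 was the 1 member called in the same direction in both lineages, and at 90% memory UMIs Gimap6 was called lower in both as well.

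Naive CD8 T cells were next set against naive CD4 T cells, the 2 resting T-cell types. Gimap5 rose in naive CD8 T cells by a log2 fold change of 0.60 ± 0.11 (edgeR, adjusted p = 0.0019), higher in 3 of 3 libraries. Gimap4 fell by 0.54 ± 0.12 (adjusted p = 0.013), Gimap1 fell by 0.41 ± 0.11 (adjusted p = 0.042) and Gimap6 fell by 0.40 ± 0.10 (adjusted p = 0.024) on the log2 scale, each lower in 3 of 3 libraries. These 1 of 8 and 3 of 8 members compare with 1.45% and 1.25% of all genes. With total UMIs 1.23% of genes were higher and 1.63% lower, and Gimap3 was lower as well (-0.39, adjusted p = 0.032). The calls depended on single libraries: without the aged library no member was called, and without the aged-GA library 1 was, Gimap4. Without the young library Gimap4 (adjusted p = 0.15) and Gimap6 (adjusted p = 0.074) were lost and Gimap9 became lower (-0.71, adjusted p = 0.0499). Gimap5 (0.78, adjusted p = 9.9e-04) and Gimap1 (-0.55, adjusted p = 0.049) kept their calls without that library.

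B cells were compared with the mean of both naive T classes. Of the 8 members, 5 fell in B cells and none rose, where 22.9% of all genes were lower and 25.2% higher. Gimap3 had the largest step with a log2 fold change of -1.34 ± 0.08 (edgeR, adjusted p = 6.9e-13), followed by Gimap9 with -1.29 ± 0.10, Gimap6 with -1.15 ± 0.08, Gimap4 with -0.99 ± 0.09 and Gimap5 with -0.46 ± 0.08 (adjusted p = 3.6e-05), each lower in 3 of 3 libraries. Gimap1 (0.04 ± 0.08, adjusted p = 0.77), Gimap7 (0.12 ± 0.15, adjusted p = 0.53) and Gimap8 (-0.21 ± 0.10, adjusted p = 0.094) did not pass. With total UMIs, 33.7% of genes were higher and 17.2% lower, and the same 5 members were called lower. No library decided any of these 5 calls.

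NK cells and memory CD8 T cells, both cytotoxic lymphocytes, differed in 6 members. Gimap8 rose in NK cells by a log2 fold change of 0.76 ± 0.12 (edgeR, adjusted p = 1.5e-05), Gimap1 by 0.33 ± 0.10 (adjusted p = 0.0087) and Gimap5 by 0.26 ± 0.09 (adjusted p = 0.025), each higher in 3 of 3 libraries. Gimap6 had -0.64 ± 0.10 (adjusted p = 1.1e-05) and was lower in 3 of 3 libraries, Gimap3 had -0.56 ± 0.09 (adjusted p = 3.3e-05) and Gimap7 -0.51 ± 0.18 (adjusted p = 0.027), and both were lower in 2 of 3 libraries on the CPM scale. All genes were split into 17.4% higher and 18% lower, but into 38% and 9.97% with total UMIs. On that scale Gimap3 (-0.20, adjusted p = 0.098) and Gimap7 (-0.16, adjusted p = 0.52) lost their calls, Gimap4 (0.49) and Gimap9 (0.32, from -0.05) became higher, and Gimap8, Gimap1, Gimap5 and Gimap6 kept theirs. The calls of Gimap5 and Gimap7 were lost without the aged library (adjusted p = 0.20 and 0.36) or the aged-GA library (0.22 and 0.19), and that of Gimap1 without the aged-GA library (0.12). At 90% memory UMIs Gimap5 was not called (0.17, adjusted p = 0.21), where 15.1% of all genes were higher and 15.1% lower.

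**Figure D3:**
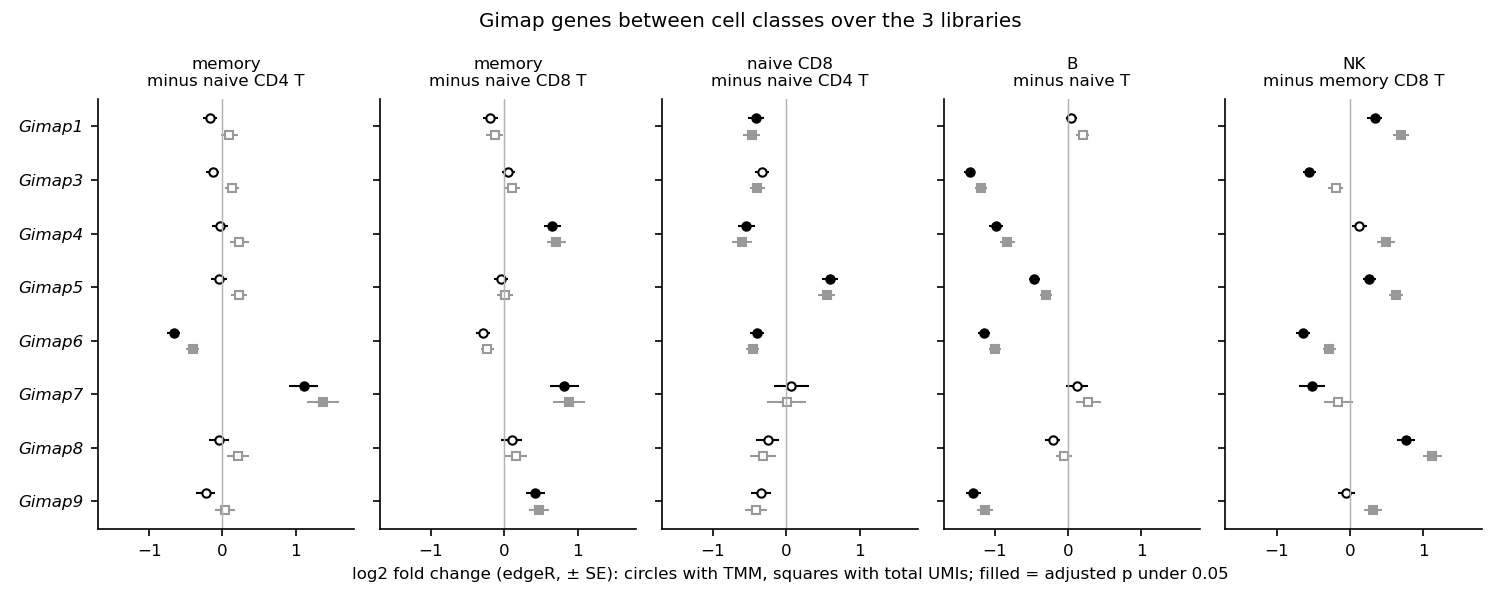
Log2 fold change of each Gimap gene (horizontal axes; bars are SE) in 5 comparisons of cell classes over the 3 libraries by edgeR, with TMM (black circles) and with total UMIs (grey squares), filled where the adjusted p was under 0.05. Gimap7 is above 0 and Gimap6 below 0 in memory against naive CD4 T cells, 5 members are below 0 in B cells on both scales, and the NK comparison shifts with the scale.

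The age comparison asked how the levels within a class differ between young and aged mice. Log2 ratios of aged over young CPM are given with 95% intervals for counting error only, and a member was counted past 1.5-fold only where both libraries together held 100 or more of its UMIs. The family sum was higher in aged mice in all 6 classes, with log2 ratios of 0.26 in naive CD4 T, 0.24 in memory CD4 T, 0.10 in naive CD8 T, 0.51 in memory CD8 T, 0.40 in B and 0.12 in NK cells. The median over all genes was also above 0, at 0.13, 0.20, 0.11, 0.33, 0.27 and 0.04 in the same order. In naive CD8 T cells the interval of the family sum, -0.05 to 0.25, held 0.

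Gimap3 had the most even difference with age. Its ratio was 0.65 (0.45 to 0.84) in naive CD4 T, 0.62 (0.40 to 0.85) in memory CD4 T, 0.35 (0.02 to 0.67) in naive CD8 T, 0.78 (0.66 to 0.91) in memory CD8 T, 0.68 (0.58 to 0.79) in B and 0.52 (0.26 to 0.78) in NK cells. All 6 ratios lay above the median of their class. Its copy Gimap5 did not follow: its ratio was -0.26 (-0.65 to 0.10) in naive CD4 T and -0.23 (-0.57 to 0.11) in memory CD4 T cells, and 0.19 (0.09 to 0.30) in B cells, and all 6 were below the median of all genes.

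Gimap7 had the largest ratio of any member in memory CD8 T cells, at 1.44 (1.23 to 1.70), from 50.8 CPM in young to 140 CPM in aged mice. In B cells its ratio was 0.54 (0.38 to 0.72), and in NK cells -0.10 (-0.58 to 0.37). Gimap8 had 0.71 (0.24 to 1.18) in naive CD4 T, 0.77 (0.24 to 1.36) in memory CD4 T and 0.72 (0.46 to 1.01) in memory CD8 T cells. Gimap4 had 0.73 (0.59 to 0.87) in memory CD8 T and 0.55 (0.42 to 0.68) in B cells. Gimap6 had 0.13 (-0.04 to 0.30) in naive CD4 T and 0.52 (0.27 to 0.78) in NK cells, which is 0.48 above the median of all genes in NK cells and at the median in naive CD4 T cells. Gimap9 in naive CD8 T cells was the 1 member past the fold in the other direction, at -0.74 (-1.51 to -0.07), from 213 UMIs in young and 19 in aged mice.

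In naive CD4 T cells 2 of 8 were higher (13.6% of all genes) and none lower (5.5%). In memory CD4 T cells 2 of 8 were higher (19.2%) and none lower (4.18%), and in memory CD8 T cells 4 of 8 were higher (27.1%) and none lower (2.38%). In B cells 1 of 8 was higher (21.5%) and none lower (2.31%), in NK cells none was higher (8.79%) or lower (5.43%), and in naive CD8 T cells, where 7 members reached the UMI minimum, none was higher (13.4%) and 1 lower (7.19%). The myeloid and haemoglobin RNA described above differed in the same direction, with Lyz2 at log2 ratios between 4.32 and 6.17 and Hba-a1 between 2.29 and 3.08, and 4 of 4 stress genes with enough UMIs were under the median in every class but naive CD8 T, where 3 of 4 were. The part of either in the Gimap ratios was not tested.

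**Figure D4:**
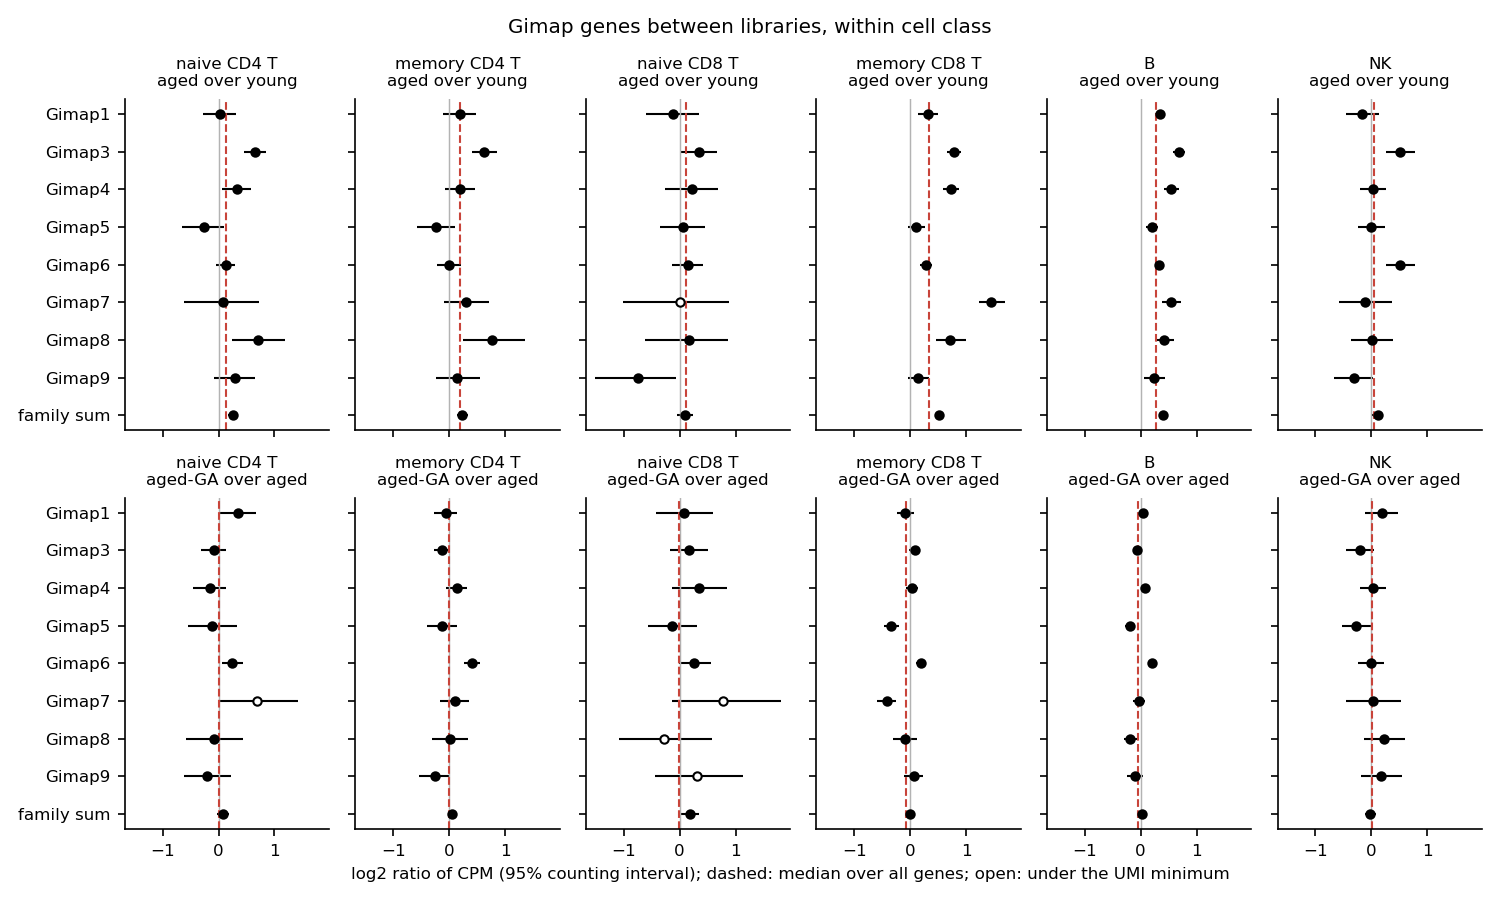
Log2 ratio of CPM for each Gimap gene and their sum (horizontal axes; bars are 95% counting intervals) in 6 cell classes, aged over young in the upper row and aged-GA over aged in the lower row. Dashed red lines are the median over all genes and open points have under 100 UMIs in both libraries together; Gimap3 lies right of the line in all 6 upper panels, and the lower panels lie near 0.

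The memory CD8 T ratios depended on which cells of young mice were called memory. With at least 90% memory UMIs, Gimap7 stood at 92.1, 190 and 123 CPM in young, aged and aged-GA mice and its ratio of aged over young was 1.04 (0.66 to 1.46). Gimap4 stood at 311, 334 and 332 CPM, and its ratio went from 0.73 to 0.10 (-0.12 to 0.34). Gimap3 (0.48, 0.26 to 0.71) and Gimap8 (0.82, 0.29 to 1.40) were above the median of all genes, which was 0.25. The family sum was then at 0.31 in memory CD8 T cells and at -0.05 (-0.23 to 0.13) in memory CD4 T cells, so that the ratio in the CD4 class turned below 0. Among members of that class Gimap3 was at 0.39 (-0.01 to 0.81) and Gimap7, at 0.30 under the wider limit, turned to -0.63 (-1.23 to -0.01), while Gimap8 was at 0.76 (-0.30 to 2.05) from 8 UMIs in young mice. Of the young memory CD8 T cells under the wider limit, 97 of 638 met the stricter one, against 366 of 556 in aged and 745 of 1071 in aged-GA mice. Naive genes were mixed at the stricter limit. Igfbp4 was still higher in young mice in both memory classes, whereas S1pr1 was lowest in young mice in both. In the CD8 class Tcf7 and Actn1 were highest and Klf2 was lowest in young mice. In the CD4 class Satb1 was highest and Tcf7 was lowest in young mice. Memory genes were uneven in both classes as well. In the CD8 class Ccl5 was at 12297, 20213 and 15314 CPM in young, aged and aged-GA mice. S100a6 was at 783, 1624 and 954 CPM and Gzmk at 40.1, 135 and 58.7 CPM there. Other memory genes of the CD8 class differed in order, with S100a4 highest in young and Ly6c2 and Cd44 highest in aged-GA mice. In the CD4 class Ccl5, a gate gene, was at 7920, 3848 and 2831 CPM and S100a6 at 1327, 3179 and 1953 CPM over the same libraries. The part of naive-type RNA and of these memory genes in the ratios was not tested.

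**Figure D5:**
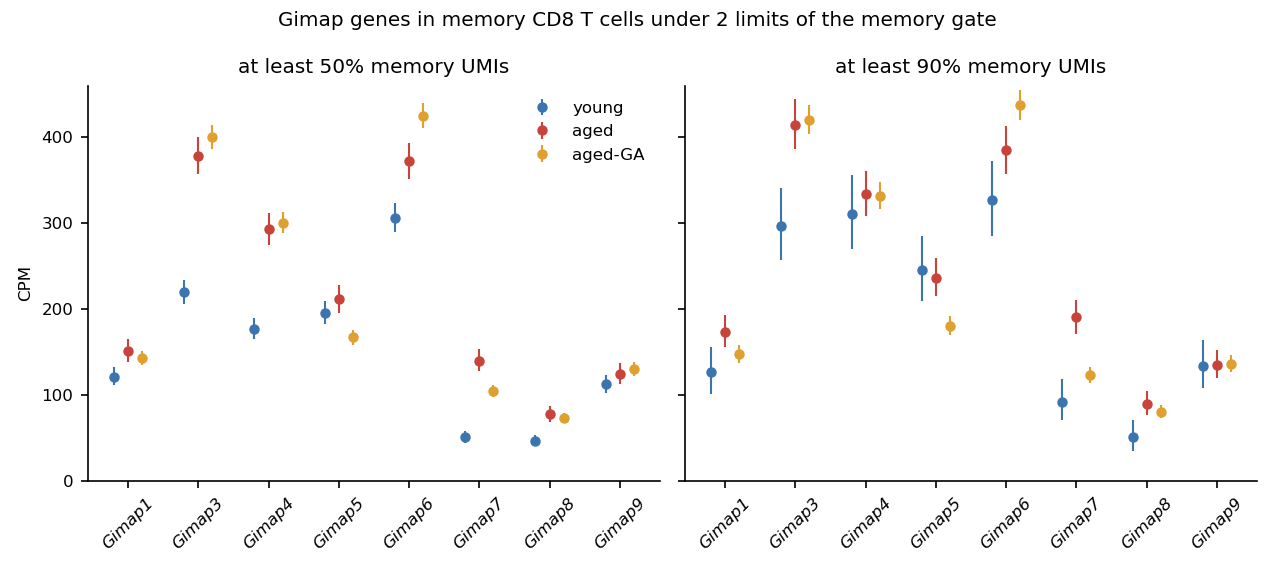
Level of each Gimap gene in memory CD8 T cells in CPM (vertical axis, linear from 0) with at least 50% (left) or at least 90% (right) of naive and memory UMIs from the memory list, by library (blue young, red aged, orange aged-GA) with 95% exact Poisson intervals. The distance between young and aged points closes for Gimap4 and remains for Gimap3 and Gimap7.

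The treatment comparison asked how aged-GA mice differ from aged mice, and no member that reached the UMI minimum was past 1.5-fold in any of the 6 classes as first gated. At 90% memory UMIs 1 member was, Gimap7 in memory CD8 T cells, on the lower side, where 5.19% of all genes were lower. In naive CD4 T cells 7 members were counted and 0 were higher (2.33% of all genes) or lower (1.59%). The same held for 8 members in memory CD4 T cells (2.11% and 1.78%), 5 in naive CD8 T cells (3.91% and 3.91%), 8 in memory CD8 T cells (1.28% and 2.78%), 8 in B cells (0.974% and 1.11%) and 8 in NK cells (1.85% and 1.89%). The family sum had log2 ratios of 0.07 in naive CD4 T, 0.06 in memory CD4 T, 0.18 in naive CD8 T (the class with 2046 CPM of B-cell markers in aged-GA mice, whose part was not tested), -0.00 in memory CD8 T, 0.02 in B and -0.02 in NK cells, where the median over all genes was within 0.07 of 0.

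Within this narrow range Gimap6 lay above 0 in 5 of 6 classes and Gimap5 below 0 in all 6. Gimap6 was higher in aged-GA mice, at 0.20 (0.14 to 0.25) in B, 0.41 (0.26 to 0.56) in memory CD4 T, 0.25 (0.06 to 0.44) in naive CD4 T and 0.19 (0.10 to 0.29) in memory CD8 T cells, and at -0.01 (-0.24 to 0.23) in NK cells. Gimap5 ran from -0.11 (-0.55 to 0.33) in naive CD4 T to -0.34 (-0.47 to -0.21) in memory CD8 T cells, with -0.20 (-0.28 to -0.12) in B cells. Gimap7, the member furthest apart with age in memory CD8 T cells, was at -0.42 (-0.59 to -0.26) there and at -0.63 (-0.82 to -0.45) with at least 90% memory UMIs. It was higher in naive CD4 T cells, at 0.68 from 24 UMIs in aged and 71 in aged-GA mice. In naive CD8 T cells it was at 0.77 from 12 and 58 UMIs. Both naive values were past 1.5-fold but under the UMI minimum, so they were not counted. Lyz2 differed as well, with log2 ratios between -1.97 and -1.40, and its part in these values was not tested. The aged library enters both comparisons, so a value that is high there raises the first ratio and lowers the second.

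A list of 24 genes of IL-7 signalling and lymphocyte survival, chosen for comparison, was read beside the family. In memory against naive CD4 T cells 3 of 24 were higher and 8 lower by the same edgeR test, where 10.7% and 8.56% of all genes were, and in CD8 T cells 1 was higher and 8 lower, where 5.83% and 3.87% were. The lower genes in the CD4 comparison included Bcl2, which blocks apoptosis, at -1.15 ± 0.14 (adjusted p = 1.8e-06), and Bach2, a repressor that keeps T cells naive, at -1.84 ± 0.22 (adjusted p = 1.5e-06). Klf2 and Tcf7, which were also lower, are on the naive list of the label check as well. In B cells against naive T cells 4 of 24 were higher and 11 lower (25.2% and 22.9% of all genes), with Il7r, the IL-7 receptor chain, at -5.19 ± 0.16 (adjusted p = 9.2e-18). In NK against memory CD8 T cells 4 were higher and 9 lower (17.4% and 18% of all genes), with Il7r at -4.49 ± 0.21 (adjusted p = 4.2e-14). Naive CD8 against naive CD4 T cells gave 0 higher and 2 lower (1.45% and 1.25% of all genes), Mcl1 and Ets1. With age, the list's median log2 ratio was 0.11 in naive CD4 T, 0.08 in memory CD4 T, 0.04 in naive CD8 T, 0.10 in memory CD8 T, 0.11 in B and -0.16 in NK cells, under the median of all genes in each. In naive CD4 T cells 11 of the 18 genes with enough UMIs were above 0 and 7 below, and in B cells 13 of 23 were above and 10 below. Il7r, singled out after its values were seen, was at -1.02 in B, -0.37 in memory CD4 T, -0.54 in memory CD8 T, -0.61 in naive CD4 T and -0.86 in naive CD8 T cells on the log2 scale, while Gimap3 was above 0 in each. B cells held little Il7r (-5.19 against naive T cells, as above), and the part of T-cell RNA in their ratio was not tested. Of the 4 genes that flank the cluster, Zfp775, Tmem176a, Tmem176b and Aoc1, none reached the UMI minimum in T or NK cells in the age comparison, and in B cells Tmem176a (1.19) and Tmem176b (1.11) were past the fold.

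Across the 18 sums, the members did not move as 1 unit. Pearson correlations of log2 CPM between a member and the sum of the others were 0.87 for Gimap4, 0.83 for Gimap3, 0.80 for Gimap9, 0.57 for Gimap8, 0.44 for Gimap7, 0.41 for Gimap6, 0.25 for Gimap1 and 0.13 for Gimap5. The closest pairs were Gimap4 with Gimap9 at 0.89 and Gimap3 with Gimap6 at 0.82, and the most distant pair was Gimap5 with Gimap6 at -0.33. These 18 points share libraries, scaling totals and the order of classes, and the values are descriptions with no test. Among 2293 other genes with at least 100 CPM in a sum, the 5 whose pattern was most like the family sum were Tecpr1 (0.94), Sept9 (0.93), Tes (0.92), Rasal3 (0.91) and Ssbp4 (0.91). Tecpr1 stood at 23.6 CPM in B cells and 126 CPM in memory CD4 T cells of young mice, the same lowest class as the family sum.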

How the data were processed

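The deposited files hold, as 1 table per library, the unnormalized UMI count of each gene in each barcode, made by the authors with Cell Ranger (the file headers name version 5.0.0) on the mm10 build given in the submitters' processing notes. How doublets were treated before deposit, and whether counting used strand, is not given in the sources used here. The 8 members and all gene lists were chosen with earlier results of these data known. The named genes were the members, Gimap1os, 4 flanking genes, 24 IL-7 and survival genes, ambient and stress genes, and the 5 genes most correlated with the family sum.

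A barcode entered if it had 200 genes or more, a gene number of no more than 90% of the largest, and at most 7.5% mitochondrial UMIs, and those over 10% haemoglobin UMIs were put in no class. No doublet caller was run, and the 75% lineage limit and the gene limit stood in for one. UMIs were summed per class and library, and all 3 libraries entered each fit. Class comparisons used edgeR 4.0.16 (quasi-likelihood, class and library as terms, R 4.3.3), with a Benjamini-Hochberg adjusted p under 0.05 as a call and DESeq2 1.42.0 as an alternative. With library as a term, the p-values measure the spread of class differences over the 3 libraries, with the error pooled over all classes. The study names several mice behind each group, but no cell is tied to a mouse, so the p-values do not measure the spread between mice. Ratios between libraries used a pseudocount of 1 CPM, exact conditional binomial intervals and Python 3.11.15, and intervals cover counting error only. The test was run on simulated data of 9037 genes, with changes placed in genes drawn at random whatever their level. Of the genes changed by 1 on the log2 scale, 49.5% were called in the CD4 and 58.8% in the CD8 comparison of memory and naive cells. Of those changed by 0.5, 14.1% and 18.5% were called. These shares are not specific to the levels of the Gimap genes. Other filters, gates, denominators, pseudocounts, tests, thinning depths and left-out libraries were tried. Scaling by total UMIs and the 90% memory limit were added after seeing the data.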

Additional observations from a re-analysis of the deposited data

Results flagged for a closer look

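Gimap9 moved in opposite directions with age in 2 classes: its log2 ratio of aged over young was 0.24 (0.06 to 0.43) in B cells and -0.74 (-1.51 to -0.07) in naive CD8 T cells. It was picked out because the intervals, which cover counting error only, lie on opposite sides of 0. The difference was not tested, since each age group is 1 library, and the naive CD8 T value rests on 19 UMIs in aged mice.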

How the results depend on the processing

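The log2 ratio of the family sum, aged over young, moved under these settings. With the stricter gate it was 0.41 in naive CD4 T, -0.0024 in memory CD4 T (reversed from 0.24), 0.71 in naive CD8 T, 0.61 in memory CD8 T, 0.46 in B and 0.27 in NK cells. Relative to the median over all genes it was 0.13 in naive CD4 T, 0.041 in memory CD4 T, 0.18 in memory CD8 T and 0.14 in B cells. Without haemoglobin, mitochondrial and ribosomal protein genes in the total it was 0.10 in memory CD4 T, 0.28 in memory CD8 T and 0.31 in B cells, and as a mean over cells 0.59 in memory CD8 T cells. At 90% memory UMIs it was -0.051 in memory CD4 T (reversed) and 0.31 in memory CD8 T cells. For aged-GA over aged, the stricter gate gave 0.23 in memory CD4 T, -0.66 in naive CD8 T (reversed from 0.18; 3 aged cells were left) and -0.11 in memory CD8 T cells. Memory CD8 T cells had -0.076 at 90% memory UMIs, 0.069 with the reduced total and 0.064 relative to the median, and B cells 0.059 relative to the median. Under the stricter gate the ratio of Gimap9 in naive CD8 T cells with age was 0.41 (reversed from -0.74). Those of Gimap7 for aged-GA over aged were -0.36 in naive CD4 T (reversed from 0.68) and -0.53 in naive CD8 T cells (reversed from 0.77). The cause of these moves was not tested.

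For class comparisons, memory against naive CD8 T cells had 1 member lower with DESeq2 and 1 at 90% memory UMIs (0 as reported), 1 higher with the stricter gate (Gimap4 and Gimap9 lost), and 1 to 3 higher with a library left out. Naive CD8 against naive CD4 T cells had 0 higher and 0 lower both without a library term and with the stricter gate, where Gimap1 was at 4.36e-06, and 0 to 1 higher and 0 to 2 lower with a library left out. NK against memory CD8 T cells had 1 higher without a library term, 1 higher with the stricter gate, 1 to 3 higher with a library left out, and 5 higher and 1 lower with total UMIs, where Gimap9 was at 0.32. Groups could not be paired because each is 1 library. Classes were compared within libraries, with library as a term except where it is said to be left out. With 1 library per group, depth limits only the counting error of the ratios, and the spread between mice is unknown.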

Other observations

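Barcodes with fewer than 200 genes and over 50% haemoglobin UMIs, which the gene minimum removed, numbered 941, 5460 and 3812 in the young, aged and aged-GA libraries. Relative to their UMIs of genes other than haemoglobin, they held 76.7 CPM (51.4 to 110, exact Poisson) of the 8 Gimap genes together in the young library, 317 CPM (285 to 351) in the aged one and 445 CPM (404 to 490) in the aged-GA one.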
